A study of Cricetulus griseus with 3 samples.

Results

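The genes described here carry the mouse zinc finger symbols Zfp, Zscan, Zkscan and Zbtb or the Krüppel-like factor symbol Klf. They were chosen by name alone, as spots of a mouse cDNA array that were annotated with a single gene symbol of these kinds. The rule took 190 of the 16928 spots tested, and these stood for 137 of the 8146 genes with a value. By symbol they fell into 5 subfamilies, which were 9 Klf genes, 13 Zbtb genes, 5 genes with a Zscan or Zkscan symbol, the 3 genes of the Zfp36 family and 107 other Zfp genes.

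Most zinc finger proteins of these families bind DNA through repeated fingers, each folded around a zinc ion that is held by cysteines and histidines. The domain beside the fingers sets what the protein does on chromatin. A KRAB box recruits Trim28 and the histone methyltransferase Setdb1 and silences the bound region, a BTB domain pairs proteins and can recruit the NCoR corepressors or the ubiquitin ligase scaffold Cul3, and a SCAN domain lets proteins pair with one another. Krüppel-like factors bind GC-rich and CACCC promoter elements and act in differentiation, growth control and metabolism. The Zfp36 family is named as zinc finger genes but differs in kind, since its proteins bind AU-rich elements of mRNAs and bring the deadenylation and decay machinery to them.

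Each of 3 arrays set RNA of the S-1 cell line against RNA of Chinese hamster ovary (CHO) cells, a hamster epithelial-like line, with 3 cultures of each. S-1 is a stable CHO derivative with constructs for the γ-secretase subunits (NCT-GST, PS1, Flag-PEN2 and APH1-a2-HA), and it was grown under G418, puromycin, zeocin, hygromycin and blasticidin and given 0.05% DMSO for 24 h. The CHO cells carried none of these constructs and received the γ-secretase inhibitor DAPT at 10 µM in 0.05% DMSO for 24 h, so the comparison asked which mRNAs differed between cells with raised and with blocked γ-secretase activity. The study also marks APP, a γ-secretase substrate, as overexpressed in S-1. The line, its constructs, the APP overexpression, the selection drugs and the inhibitor all differed together between the cultures. They cannot be told apart, and S-1 is 1 line. Whole cultures were measured, so that a change in a share of the cells and a change in mRNA per cell cannot be told apart.

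All values below are log2 ratios with S-1 as numerator and DAPT-treated CHO as denominator, so that 1 unit stands for a doubling and a value above 0 means more mRNA in S-1. The dye of the S-1 RNA was Cy3 on the first pair of arrays (1 and 2), and for array 3 it was swapped to Cy5. The spots of Psenen and Aph1a, which are among the transfected subunits, lay at 3.09 and 2.02 and passed the test, whereas that of Ncstn, at 0.38, did not (adjusted p = 0.0352, limma). Hamster cDNA was hybridised to mouse clones, and cross-hybridisation between related zinc finger sequences was not tested. The ratios of the 190 spots correlated between arrays at 0.89, 0.79 and 0.78, against 0.96, 0.88 and 0.89 over all tested spots.

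A smaller share of the zinc finger and Krüppel-like genes than of all genes passed the test. With limma and an adjusted p of at most 0.005, 20 of the 137 genes passed (14.6%), against 22.6% of all genes. Of these, 7 rose in S-1 (5.11%, against 12.4% of all genes) and 13 fell (9.49%, against 10.3%). At an adjusted p of at most 0.05, 49 of the 137 genes passed, 23 higher and 26 lower, where 46.2% of all genes passed. At an unadjusted p under 0.05 the shares were 18.2% higher and 22.6% lower, against 28.7% and 25.5%. The share that fell was thus near that of all genes, while the share that rose was lower, and no test was made of either difference. Counted over spots, 23 of 190 passed (12.1%, against 18.2%), with 7 that rose (3.68%, against 9.68%) and 16 that fell (8.42%, against 8.52%). At an unadjusted p under 0.05, 17.9% of the spots were higher and 21.1% lower, against 25.8% and 22.8%. All 20 genes and all 23 spots had the same sign on the 3 arrays, which a test on these same arrays favours. The count of genes fell to 6 without array 1 and to 6 without array 2 and rose to 38 without array 3, when 8.26%, 5.97% and 40.5% of all genes passed.

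The array held clones of different collections, told by their place on it, and the shares that rose differed between these collections. Of the 190 spots, 185 lay at places of the H clones, 3 at those of the P clones and 2 at places whose clones are not listed by the study. The 480 unlisted spots had a median of 1.56, and 79.6% of them passed the test, with 78.8% that rose and 0.833% that fell. Of the genes described here 1 of 2 unlisted spots rose, that of Zfp36, and that of Zfp106, at 0.19, did not pass. Among H spots alone, 6 of the 185 spots of these genes rose (3.24%, against 6.76% of all 15360 H spots) and 15 fell (8.11%, against 8.52%). The distance between the shares that rose was therefore smaller on like spots, at 3.24% and 6.76%, than over all spots. With gene values taken from H clones alone, 19 of 136 genes passed (14%, against 18.7%), 6 of them higher (4.41%, against 8%) and 13 lower (9.56%, against 10.7%). More falls than rises were thus found over all genes on H clones as well.

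**Figure D1:**
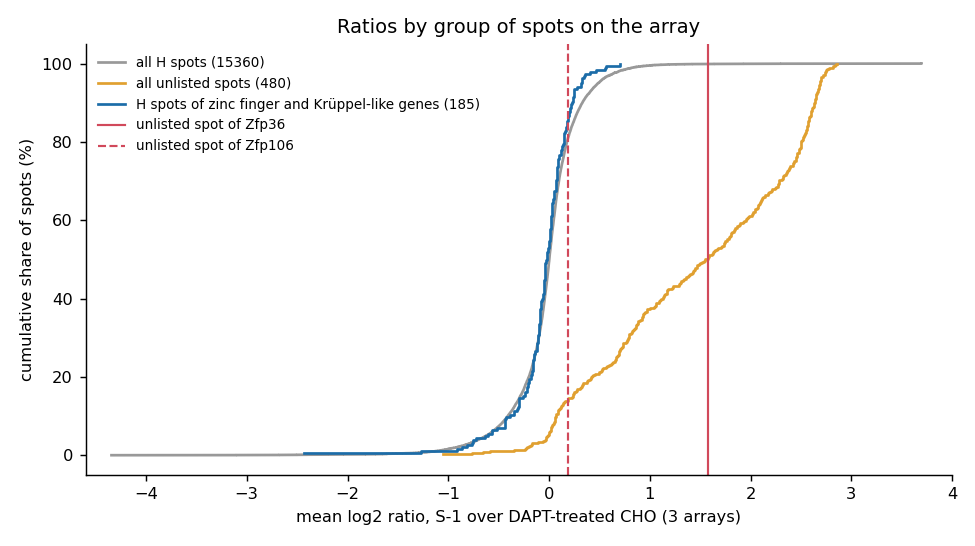
Cumulative share of spots (percent) against the mean log2 ratio of 3 arrays, for all 15360 H spots, all 480 unlisted spots and the 185 H spots of zinc finger and Krüppel-like genes, with vertical lines at the 2 unlisted spots of these genes. The zinc finger curve runs with that of all H spots, and the line of Zfp36 at 1.57 crosses the curve of unlisted spots near its middle.

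The spread of the ratios was near that of all H spots. The 190 spots had a median of -0.02 and an SD of 0.35, and 172 of them (90.5%) lay within 0.5 of 0, as did 84.7% of all tested spots, whose SD was 0.48. The SD of all H spots was 0.36, and 87.9% of them lay within 0.5 of 0. The median per array was -0.03, -0.02 and -0.02. The standard error of a gene's value had a median of 0.05 and its 95% confidence interval a median width of 0.13 to either side. That interval is not adjusted for the number of genes tested, and the threshold asked for more. The smallest gene value in size that passed was -0.29, that of Zfp521, while Zfp185 missed at 0.25 ± 0.01. Smaller changes could thus go undetected with 3 arrays.

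Among the genes that rose, Zfp36 stood highest. Its protein, tristetraprolin, binds AU-rich mRNAs of cytokines and immediate early genes and speeds their decay. Zfp36 (Entrez 22695) read 1.45, 1.64 and 1.63 on arrays 1 to 3, a mean of 1.57 ± 0.11 (SD, n = 3 arrays) or 2.98 times as much mRNA in S-1 (adjusted p = 0.00014, limma). The 3 arrays lay close together and far from 0. Its only spot was one of the unlisted ones, where 241 of 480 spots lay below it (50.2%), so its value was an ordinary one among the spots of that kind. The part of the spot's place in this value was not tested.

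The other 6 genes that rose did so by smaller amounts and were measured by H clones, with a P clone beside one for Zfp354a. Zfp281, a GC-rich DNA binding factor of pluripotent cells, read 0.69, 0.85 and 0.57, a mean of 0.70 ± 0.14 or 1.63 times as much in S-1 (adjusted p = 0.0012). Zfp622, a factor in the maturation of the large ribosomal subunit, read 0.43, 0.61 and 0.66, a mean of 0.56 ± 0.12 (adjusted p = 0.0018). No array of either gene lay below 0.43. Zfp830, needed in the early mouse embryo, read 0.37, 0.38 and 0.46, a mean of 0.40 ± 0.05 (adjusted p = 0.0020). Zfp110, a partner of the p75 neurotrophin receptor, read 0.34, 0.50 and 0.36, a mean of 0.40 ± 0.09 (adjusted p = 0.0034). The known roles of these 4 genes are unlike one another. Zfp213 read 0.39, 0.30 and 0.36, a mean of 0.35 ± 0.05 (adjusted p = 0.0031), and Zfp354a, a KRAB zinc finger gene found in kidney, read 0.26, 0.30 and 0.38, a mean of 0.31 ± 0.06 (adjusted p = 0.0048). Of the 7 rises, only that of Zfp36 passed without each array in turn, and the other 6 did not pass without array 1 or without array 2. The last 2 fits passed 8.26% and 5.97% of all genes.

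The falls reached further than the rises on H clones. Zfp280d read -1.31, -1.31 and -1.14, a mean of -1.25 ± 0.10 (adjusted p = 0.00016), as the mean of 2 clones that did not match, described with the other repeated genes. Zfp36l1, an AU-rich mRNA decay factor like Zfp36, read -1.27, -1.51 and -0.94, a mean of -1.24 ± 0.29 (adjusted p = 0.0011), or 2.36 times as much mRNA in DAPT-treated CHO. Zfp219, a cofactor of Sox9 in cartilage, read -0.86, -1.002 and -0.88, a mean of -0.91 ± 0.08 (adjusted p = 0.00026), or 1.88 times as much in DAPT-treated CHO. In each of these genes the 3 arrays lay far from 0.

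Zfp687, a partner of the chromatin reader Zmynd8, read -0.99, -0.65 and -0.80, a mean of -0.81 ± 0.17 (adjusted p = 0.0012). Zfp9 read -0.75, -0.66 and -0.90, a mean of -0.77 ± 0.12 (adjusted p = 0.00078), and Zfp62 read -0.58, -0.82 and -0.86, a mean of -0.76 ± 0.15 (adjusted p = 0.0011). Zbtb7b, also called ThPOK, is the BTB factor that directs T cells to the CD4 lineage, and it read -0.53, -0.70 and -0.94, a mean of -0.72 ± 0.21 (adjusted p = 0.0025). In these 4 genes no array came closer to 0 than -0.53.

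The 6 remaining falls lay between -0.52 and -0.29. Zfp654 read -0.57, -0.66 and -0.33, a mean of -0.52 ± 0.17 (adjusted p = 0.0047). Zfp503, a corepressor of the developing striatum and limb, read -0.42, -0.50 and -0.41, a mean of -0.44 ± 0.05 (adjusted p = 0.0015). The smallest spread of the 20 genes was that of Klf11, which is given with the Krüppel-like factors. Zfp706 had a mean of -0.41 ± 0.06 (adjusted p = 0.0021), Zfp407 one of -0.30 ± 0.03 (adjusted p = 0.0042) and Zfp521, a factor of blood and bone progenitors also known as Evi3, one of -0.29 ± 0.04 (adjusted p = 0.0047). Without array 1 or without array 2, only Zfp36, Zfp219, Zfp280d and Zfp687 of the 20 genes passed both times, and all 20 passed without array 3. Of all genes, 8.26%, 5.97% and 40.5% passed in these fits.

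**Figure D2:**
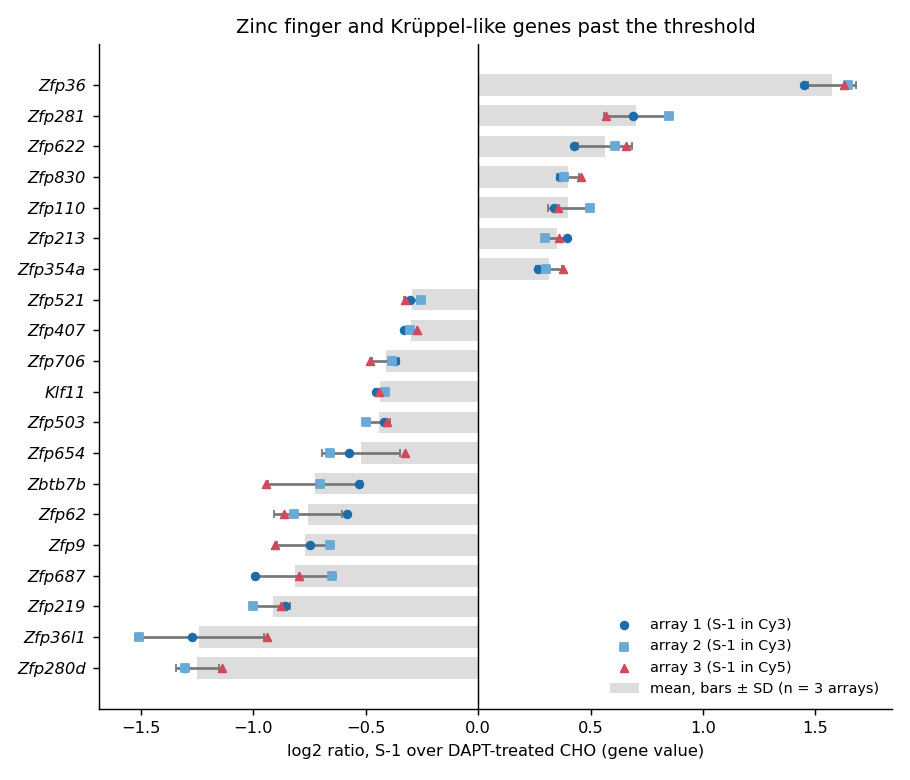
Log2 ratio (horizontal axis, above 0 for more mRNA in S-1) for the 20 genes past the threshold, with a bar for the mean, a whisker of ± SD and a symbol for each of the 3 arrays. The symbols of a gene lie on 1 side of 0 for all 20 genes, which the test that chose them favours. The means run from -1.25 for Zfp280d to 1.57 for Zfp36.

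The 3 genes of the Zfp36 family had values on both sides of 0. Zfp36 rose, at 1.57, and Zfp36l1 fell, at -1.24. Both clones of Zfp36l1 passed the test: the H clone lay at -1.27 and the P clone at -1.21. Zfp36l2, the third member, read -0.66, -0.76 and -0.28, a mean of -0.57 ± 0.25 (adjusted p = 0.0088), which missed the threshold. It passed when array 3 was left out, at -0.71 (adjusted p = 2.033e-05), while the call of Zfp36l1 was lost without array 1 (adjusted p = 0.0067). These fits passed 40.5% and 8.26% of all genes. Without the unlisted spots the family had a value for Zfp36l1 and Zfp36l2 only, and Zfp36 had none.

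Among the 9 Krüppel-like factors, measured by 15 spots, 1 fell and none rose, where 10.3% of all genes fell and 12.4% rose. Klf11, a TGF-β-inducible repressor, read -0.46, -0.42 and -0.44, a mean of -0.44 ± 0.02 (adjusted p = 0.0013), and missed the threshold without array 1 (adjusted p = 0.0137) and without array 2 (adjusted p = 0.0151). The other 8 lay between -0.22 and 0.14 with a subfamily median of -0.10. Klf7, a factor of neuronal outgrowth, came nearest at -0.22 ± 0.05 (adjusted p = 0.0147). Klf6, a growth-restraining factor, lay at -0.17 ± 0.09 and Klf16 at -0.16 ± 0.13.

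Klf4 and Klf5, which act in epithelia and in pluripotent cells, did not pass the test. Klf4 lay at -0.07 ± 0.19 over 3 spots, with -0.10 and -0.24 on arrays 1 and 2 and 0.14 on array 3. Klf5 lay at 0.14 ± 0.24, with 0.02, -0.01 and 0.42. In both genes the array of the other dye orientation stood apart. Klf17 lay at -0.10 ± 0.08, Klf13 at 0.08 ± 0.09 and Klf9, a factor induced by steroid and thyroid hormones, at 0.03 ± 0.18. With a coefficient for the dye in the fit, 4 Klf genes passed in place of 1, which were Klf11, Klf7, Klf16 and Klf5. In that fit array 3 alone had the other dye, so the error came only from the difference between arrays 1 and 2. It passed 44.9% of all genes, against 22.6% without the coefficient.

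Of the 13 Zbtb genes, Zbtb7b fell and none rose, where 10.3% of all genes fell and 12.4% rose. The median of the 13 was -0.10, and 10 of them lay below 0. The lowest was not past the threshold. Zbtb18, a repressor of neuronal differentiation genes also known as RP58, read -1.11, -1.07 and -0.41, a mean of -0.86 ± 0.39 (adjusted p = 0.0083). Its value on array 3 was closer to 0 than on the other arrays. Without array 2 no Zbtb gene passed and without array 3 there were 4, when 5.97% and 40.5% of all genes passed. None of the 5 genes with a Zscan or Zkscan symbol passed, where 22.6% of all genes did. The group was set by symbol, so a SCAN domain in genes named Zfp was not looked for. Zkscan17 lay at -0.21, Zkscan1 at -0.18, Zscan12 at -0.11, Zkscan6 at -0.05 and Zscan25 at 0.06. With the dye coefficient 2 of them passed, as did 44.9% of all genes.

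**Figure D3:**
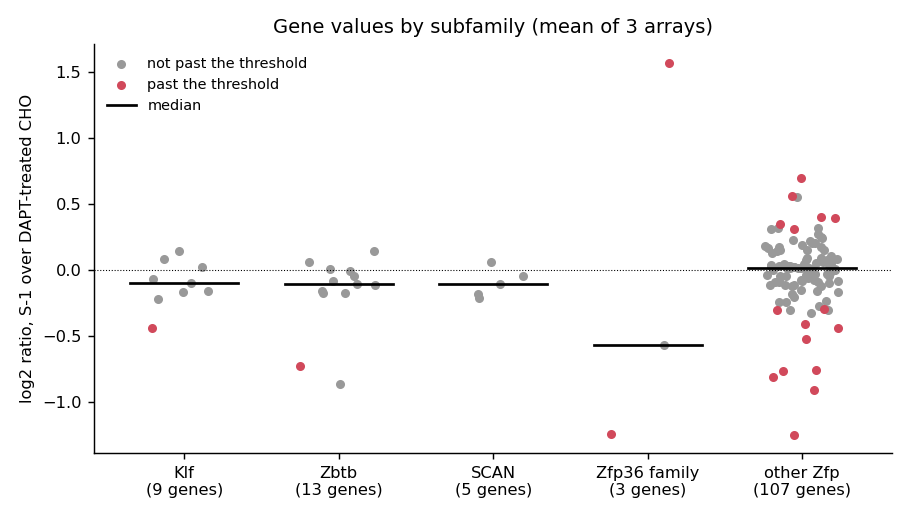
Gene values (mean log2 ratio of 3 arrays, vertical axis) of the 137 genes by subfamily, with the median as a line and the 20 genes past the threshold in red. The medians of the Klf, Zbtb and SCAN (Zscan or Zkscan symbol) genes lie near -0.1. That of the 107 other Zfp genes is 0.01, and the Zfp36 family holds values at 1.57 and -1.24.

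The 107 other Zfp genes had 6 rises and 10 falls, where 12.4% of all genes rose and 10.3% fell. Their median was 0.01, with 57 genes above 0 and 50 below. The groups by what the proteins do that follow were made after the values had been seen. Zfp687, Zfp592 and Zfp532 are held together with Zmynd8 in 1 chromatin complex. Zfp687 fell, at -0.81, while Zfp592 lay at 0.00 ± 0.04 over 3 spots (adjusted p = 0.9997) and Zfp532 at -0.11 ± 0.03 (adjusted p = 0.0883). The 95% confidence interval of Zfp592 ran from -0.11 to 0.11.

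Zfp57, Zfp809 and Zfp568 were taken as examples of genes whose proteins silence imprinted loci or retroelements. None of them passed, where 22.6% of all genes did. Zfp57, which guards imprints in the embryo, lay at -0.02 ± 0.03. Zfp809, which silences murine retroviruses, lay at 0.01 ± 0.09. Zfp568, which acts on placental Igf2, lay at 0.15 ± 0.02 (adjusted p = 0.0353). The pluripotency marker Zfp42, or Rex1, lay at 0.07 ± 0.07. All 4 stayed within 0.2 of 0.

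A group of 10 genes with the Zfp36 family acts on RNA or proteins more than on DNA. Here 2 rose, Zfp36 and Zfp622, 1 fell, Zfp36l1, and 7 did not pass, where 12.4% of all genes rose and 10.3% fell. Zfp598, a sensor of collided ribosomes, lay at 0.19 ± 0.11 (adjusted p = 0.0479). Zfp593, which takes part in the making of the large ribosomal subunit, lay at -0.05 ± 0.05. Both share ribosomes as their place of action with Zfp622, which rose to 0.56. Zfp451, a SUMO ligase, lay at -0.24 ± 0.04 (adjusted p = 0.0091), and Zfp185, a LIM domain protein of the actin cytoskeleton, at 0.25 ± 0.01 (adjusted p = 0.0071). The last 2 genes had the same sign on all arrays and little spread, yet missed the threshold.

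The 10 genes with Zfp numbers of 3 digits that begin with 9, many of them from rodent clusters of KRAB zinc finger genes, had a median of 0.02. None of their gene values passed, where 22.6% of all genes did. Of their 20 spots 1 passed, a clone of Zfp943 at -0.57, where 18.2% of all tested spots did.

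For 37 genes more than 1 spot was read, 90 spots in all, and 17 of these genes had spots of opposite sign. The median distance between the highest and the lowest spot of a gene was 0.15. In 10 genes at least 1 spot passed, and only in Zfp36l1 did all. Zfp280d differed most: 1 clone read -2.46, -2.51 and -2.34, a mean of -2.44, and the other had a mean of -0.06. The gene value of -1.25 was thus the mean of a strong fall and of no detectable change. A clone past the threshold beside one near 0 was also seen in Zfp943, whose clones had means of -0.57 and -0.04, and in Zfp866, at -0.43 and -0.04. The 3 clones of Zfp367 lay at -0.60, -0.32 and -0.06, of which the lowest passed.

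Of the 10 genes with a spot past the threshold, 4 besides Zfp36l1 had clones less than 0.2 apart. Those of Zfp706 read -0.43 and -0.39, those of Zfp110 0.47 and 0.33, those of Zfp354a 0.35 and 0.28, and those of Zfp207, a spindle protein that binds Bub3, -0.35 and -0.20, with 1 clone of each past the threshold. Zfp710 alone of the 10 had clones on both sides of 0, from -0.44 to 0.05. Of the 10 genes, 5 had a gene value past the threshold and 5 had not. Whether the clones of a gene cover different transcripts was not tested.

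**Figure D4:**
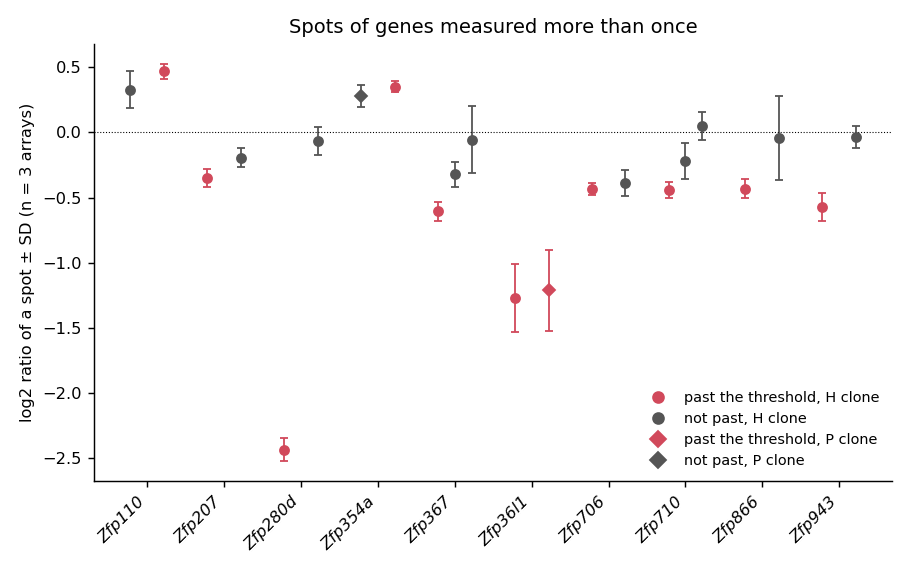
Mean log2 ratio ± SD over 3 arrays (vertical axis) of every spot of the 10 genes that were read more than once and had at least 1 spot past the threshold, in red where the spot passed and with diamonds for P clones. The 2 clones of Zfp36l1 lie together at -1.27 and -1.21, whereas those of Zfp280d lie at -2.44 and -0.06.

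The sign of a ratio was compared between the arrays. Of the 190 spots, 118 (62.1%) had the same sign on the 3 arrays, against 67.6% of all tested spots. In 42 spots (22.1%) array 3 alone had the other sign, against 12 spots for array 1 and 18 for array 2. Over all tested spots array 3 stood apart in 17.0%. Array 3 was the only array with S-1 in Cy5, so that its dye orientation cannot be told apart from its cultures and its slide.

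The largest spread over arrays was in a spot that did not pass. Zfp263 read 0.00, 1.56 and 0.12, a mean of 0.56 ± 0.87 (adjusted p = 0.2283), and rested on array 2 alone. Zfp101 read 0.12 and 0.02 on arrays 1 and 2 and -0.68 on array 3. One clone of Zbtb20, a BTB repressor of liver and brain, read -0.96, -0.78 and -0.16. Each of these 3 spots had a single array that stood apart from the other arrays.

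**Figure D5:**
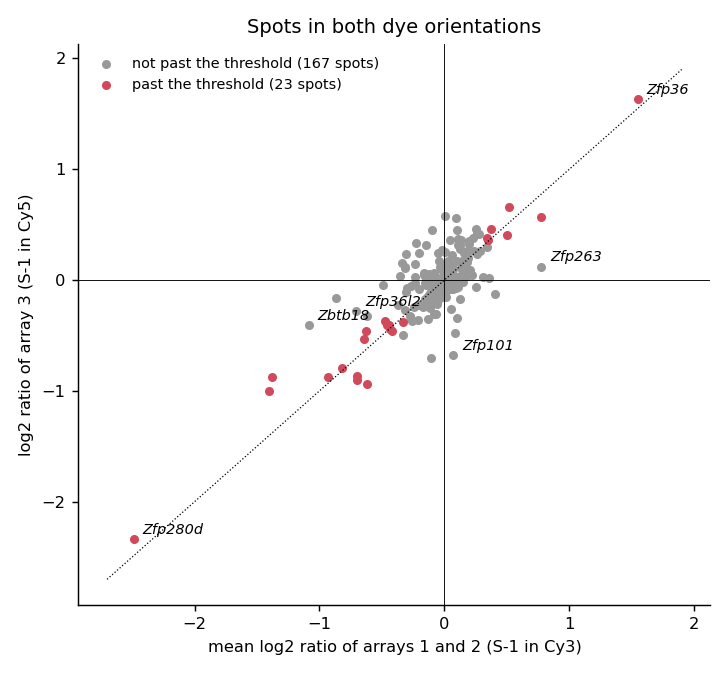
Log2 ratio of array 3, with S-1 in Cy5 (vertical axis), against the mean of arrays 1 and 2, with S-1 in Cy3 (horizontal axis), for the 190 spots, with the 23 spots past the threshold in red and the line of equal values dotted. The red spots, chosen by a test on these same arrays, follow the line on both sides of 0. Spots near 0 scatter, and Zfp263 and Zbtb18 lie off the line.

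The threshold ran through a closely spaced set of spots. Just inside it were Zfp207 (-0.35, adjusted p = 0.0050), Zfp213 (0.35, adjusted p = 0.0039), Zfp354a (0.35, adjusted p = 0.0036), Zbtb7b (-0.72, adjusted p = 0.0028) and Zfp866 (-0.43, adjusted p = 0.0027). Just outside were Zfp654 (-0.52, adjusted p = 0.0053), the second clone of Zfp706 (-0.39, adjusted p = 0.0053), Zfp407 (-0.30, adjusted p = 0.0055), Zfp521 (-0.29, adjusted p = 0.0062) and a clone of Zfp821 (-0.29, adjusted p = 0.0071). Zfp654, Zfp407 and Zfp521 have a single spot and passed as genes though not as spots. Their ratios were the same in both fits, while the variance moderation and the adjustment ran over 8146 genes in one and 16928 spots in the other.

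The corepressors through which KRAB and BTB proteins act were listed beside the zinc finger genes. Of 30 listed genes 24 had a value, 1 rose and 3 fell, with a median of -0.01. That is 16.7% of the list, against 22.6% of all genes (12.4% that rose and 10.3% that fell). Setdb1, the methyltransferase of the KRAB pathway, read -0.58, -0.58 and -0.48, a mean of -0.54 ± 0.06 (adjusted p = 0.00095), and each of its 4 H clones passed, between -0.70 and -0.41. Trim28, which links KRAB proteins to Setdb1, lay at 0.00 ± 0.17. The pair thus differed in that Setdb1 fell and Trim28 did not pass. Sin3a, a scaffold of histone deacetylase complexes, fell at -0.51 ± 0.11 (adjusted p = 0.0021), with 3 of its 4 clones past the threshold. Hdac5 fell at -0.50 ± 0.08 (adjusted p = 0.0015).

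Hdac3, the deacetylase of NCoR complexes, had a gene value of 0.68 ± 0.09 that passed (adjusted p = 0.00076). It came from an N clone at 1.46, while its H clone lay at -0.10 and did not pass. On H clones alone the list had 2 calls, Setdb1 and Sin3a. Leaving out array 1 gave 1 call in this list, leaving out array 2 gave 0 and leaving out array 3 gave 9. Of all genes, 8.26%, 5.97% and 40.5% passed in these fits.

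Other factors with fingers of the same fold but other names were given as a second list, with 44 of 80 genes measured, 2 rises, 4 falls and a median of -0.03. The share of calls was 13.6%, against 22.6% of all genes (12.4% that rose and 10.3% that fell). Egr1, an immediate early gene of growth factor signalling, fell furthest. It read -1.49, -1.46 and -1.32, a mean of -1.42 ± 0.09 (adjusted p = 0.00015), with an H clone at -1.83 and an unlisted clone at -1.01. Both clones fell, though most unlisted spots rose. Trps1, a GATA-type repressor of cartilage and hair, fell at -0.83 ± 0.09, Wt1, the Wilms tumour factor, at -0.74 ± 0.12, and Gli2, an effector of Hedgehog signalling, at -0.35 ± 0.06. Gtf3a, the factor that starts 5S RNA transcription, rose to 0.46 ± 0.12, and Mtf1, which senses metals, rose to 0.35 ± 0.06. Without array 1 or 2 this list had 2 calls each time, and without array 3 it had 13. The shares of all genes that passed were then 8.26%, 5.97% and 40.5%.

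The third list held genes of the mRNA decay machinery and, beside them, Elavl1, Khsrp, Hnrnpd, Mapkapk2, Ywhab, Ywhaq and Ywhaz. It had 30 of 46 genes measured, 4 rises, 4 falls and a median of -0.03. The share of calls was 26.7%, against 22.6% of all genes (12.4% that rose and 10.3% that fell). The rises were mainly in the RNA exosome, the 3′ to 5′ nuclease. Exosc8 read 0.92, 0.97 and 1.16, a mean of 1.02 ± 0.13 (adjusted p = 0.00035), Exosc4 had a mean of 0.97 ± 0.03 (adjusted p = 0.00016) and Exosc1 one of 0.86 ± 0.17 (adjusted p = 0.00096). Exosc5, the fourth exosome gene with a value, lay at -0.13 ± 0.35 and did not pass. Lsm5, of the ring that binds deadenylated mRNA, rose to 0.42 ± 0.11.

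The 4 gene values of this list that fell were of deadenylation and poly(A) binding genes. Cnot6l, a deadenylase, fell at -0.57 ± 0.19 and Cnot1, the scaffold of its complex, at -0.32 ± 0.03. The poly(A) binding protein genes Pabpc1 and Pabpc4 fell at -0.46 ± 0.05 and -0.43 ± 0.02. All 8 genes were measured by H clones. On H clones alone the list had 9 calls, as Mapkapk2 also passed, at -0.34. Its gene value of -0.18, which took in an unlisted spot, did not pass. Cnot2, Cnot6, Cnot7, Cnot8 and Cnot9 of the same complex lay between 0.04 and 0.18 and did not pass. The list had 2 calls without array 1, 2 without array 2 and 13 without array 3, when 8.26%, 5.97% and 40.5% of all genes passed.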

How the data were processed

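Hamster RNA of 3 S-1 and 3 DAPT-treated CHO cultures was hybridised to 3 two-colour mouse cDNA arrays, with the dyes swapped on array 3. The authors scanned the arrays with GenePix Pro, subtracted no background and normalised within print-tip groups by lowess. The values they deposited are log2 ratios of S-1 over DAPT-treated CHO in the same direction on all arrays. Array number limits the precision, and the deposited ratios give no signal over background.

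Of 17664 spots, 736 at 23 of 552 positions of each of 32 blocks carried no gene name in any block and were left out as controls. Gene symbols came from the platform annotation, with 12563 tested spots carrying 1 name, 412 several and 3953 none. Clone collections were told by position, a rule set after values had been seen. Of 696 clones that the study lists and whose gene has 1 spot, 692 had the letter of their position.

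Ratios were fitted in limma 3.58.1 (R 4.3.3) with 1 coefficient against 0 and empirical Bayes moderation. Benjamini-Hochberg adjustment ran over all tested spots, or over all genes with spots of a gene averaged, and calls needed an adjusted p of at most 0.005, the threshold of the study. The script was tested on simulated data. Tables and plots used Python 3.11.15. Named were all genes past the threshold, all Klf and Zfp36 family genes, repeated genes with a spot past it, the 5 spots on either side of it, and list genes past it, and other genes were named after their values were seen. The members, lists and tests were chosen with earlier results of these data known. Alternatives changed the threshold, scaling, dye term, weights, prior, spots and arrays used. A grouping by protein domain was not made, and no sequences were used here.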

Additional observations from a re-analysis of the deposited data

How the results depend on the processing

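No alternative turned the direction of any of the 20 called genes. In the order spots that rose, spots that fell, genes that rose and genes that fell, the counts of 7, 16, 7 and 13 became 21, 32, 23 and 26 at an adjusted p of at most 0.05, 27, 35, 20 and 27 with a dye coefficient, 14, 30, 12 and 24 with array weights, and 3, 10, 3 and 8 when an absolute log2 ratio of at least 0.5 was asked for as well. Of all genes, 46.2%, 44.9% and 38.5% passed at 0.05, with the dye coefficient and with array weights. The minimum of 0.5 left 13.1% of all tested spots and 14.5% of all genes. With the control spots in the fit 1 spot rose and 3 fell, and 6.71% of all spots in it passed, against 18.2% without the controls. Over the fits without array 1, 2 or 3 in turn, the counts ranged from 1 to 17, 1 to 37, 1 to 14 and 5 to 24, with the highest each time without array 3, when more of all features passed too. Centring, scaling, quantile normalisation, a robust prior, H clones alone, dropping the unlisted spots (chosen after seeing the data) and the median of a gene's spots left these counts within 1.5 times of the values given.

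Among the 3 lists, in the order corepressors, other zinc finger factors and mRNA decay genes, the 4, 6 and 8 calls became 12, 16 and 15 at 0.05 and 9, 16 and 14 with the dye coefficient, array weights gave 9 and 13 for the first pair of lists, the minimum of 0.5 gave 3 and 4 for the last pair, and H clones alone gave 2 corepressors. Without 1 array they ranged from 0 to 9, 2 to 13 and 2 to 13, where 5.97% to 40.5% of all genes passed. For the subfamilies, the dye coefficient gave 4 Klf, 2 Zbtb, 2 Zscan or Zkscan and 36 other Zfp calls in place of 1, 1, 0 and 16. The error of the dye fit came only from the 2 arrays of the same dye orientation, and 44.9% of all genes passed in it. The Zfp36 family had 1 call in place of 2 on H clones alone and without the unlisted spots. Leaving out 1 array gave 0 to 1 Klf, 0 to 4 Zbtb, 1 to 3 Zfp36 family and 4 to 30 other Zfp calls. The share of all genes ran from 5.97% to 40.5% in the same fits. Ncstn passed with the dye coefficient, at 0.44 (adjusted p = 8.456e-05). The cause of these changes was not tested.

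No paired analysis was possible because each ratio already sets the cultures of 1 array against each other and the arrays form 1 group. With 3 arrays and no signal over background in the deposited ratios, small differences and dim spots could not be told from noise.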

Other observations

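A further 20 spots carried several gene names of which at least 1 belongs to these families, so that no gene could be named from them. They had a median of 0.08 and ranged from -0.28 to 0.46, and 14 of the 20 lay above 0. None passed an adjusted p of 0.005 in limma, where 18.2% of all tested spots did. An unadjusted p under 0.05 was found for 6 of them, where 25.8% of all tested spots were higher and 22.8% lower. The lowest adjusted p, 0.0086, was that of a spot shared by Zfp982 and Zfp54, which read 0.23, 0.32 and 0.39 on the 3 arrays. A spot shared by Zfp948 and Zfp52 had a mean of 0.35 and a second spot of the same names -0.01. Of 3 spots shared by Zfp91 and Cntf, 1 read 0.74, 0.68 and -0.04 and the others had means of 0.16 and -0.09.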
